A study of Mus musculus with 18 samples.

Results

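Genes of calcium uptake and vitamin D handling were followed in the colon of mice with and without claudin-2. They were *Trpv6*, *Trpv3*, *S100g*, *Atp2b1*, *Vdr* and *Cyp24a1*, 6 of the 47729 genes in the count table. The genes were selected on their CPM levels in these same 6 groups (CPM, counts per M reads of a library), so their levels and differences are given as a description and none of them was tested. Of the 6 genes, 5 passed the filter on low counts, and *Cyp24a1* did not.

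RNA-seq libraries came from the colon of *Cldn2*KO mice, which lack the gene for the tight junction protein claudin-2, and of WT mice. Both genotypes were on the C57BL/6 background and littermates served as controls. Controls of both genotypes are those with the treatment label Control, although the protocol text attached to every sample, controls and recovery included, is that of AOM/DSS. Recovery mice had been given dextran sulfate sodium (DSS), which damages the lining of the colon and so causes colitis, and were then left to heal. AOM/DSS mice, which develop tumours on a background of colitis, had received 1 dose of the carcinogen azoxymethane at 10 mg/kg and 3 cycles of DSS at 2.5% (w/v). Each of the 6 groups held 3 libraries, 18 in all, at 17.6 to 27.4 M reads (median 19.6). The ages of the mice and the length of recovery were not given in the sources used here. The knockout is not restricted to the epithelium by the labels, and nothing in the labels says which libraries came from separate mice, so the spread given here is that between libraries and may be partly technical. The study asked how loss of claudin-2 changes colitis, its repair and the cancer that follows from it. Claudin-2 itself forms a paracellular pore for small cations and water, and the genes described here belong to the other route, through the cell.

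Calcium crosses an epithelium through cells in a series of steps. It enters at the apical membrane through channels of the TRPV family, of which TRPV6 is the calcium-selective one of the intestine, is carried through the cytosol bound to calbindin-D9k, the product of *S100g*, and is pumped out at the basolateral side by the plasma membrane calcium ATPase PMCA1, the product of *Atp2b1*. The vitamin D receptor, encoded by *Vdr*, binds active vitamin D with a retinoid X receptor as partner and is known to drive *Trpv6*, *S100g* and *Cyp24a1*. CYP24A1 breaks active vitamin D down. TRPV3 is a calcium-permeable cation channel best known from skin keratinocytes, and it is also present in the distal colon.

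The vitamin D receptor and the homeobox factors that mark position along the gut bind DNA near the genes they act on. RefSeq promoter windows (GRCm38.p6) were matched for 5 of the 6 genes and searched over the 250 bases before the start. The windows of *Trpv6*, *Trpv3* and *S100g* are printed because these were the genes with the widest range of levels. They read 5′ to 3′ on the strand of the gene, with matches to AGGTCA, the half-site of nuclear receptors, on either strand in capitals. That half-site was chosen after the sequences had been read. The *Trpv6* window lies at chr6:41636406-41636655 on the minus strand and the *S100g* window at chrX:162964600-162964849 on the minus strand. For *Trpv3*, only the 118 bases before the first annotated start of the gene are shown, chr11:73267270-73267387 on the plus strand.
Trpv6: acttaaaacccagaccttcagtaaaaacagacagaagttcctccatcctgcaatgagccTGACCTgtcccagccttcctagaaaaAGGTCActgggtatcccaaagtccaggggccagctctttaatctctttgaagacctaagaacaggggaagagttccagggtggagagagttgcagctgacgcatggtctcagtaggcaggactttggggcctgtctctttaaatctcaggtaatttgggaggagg
Trpv3: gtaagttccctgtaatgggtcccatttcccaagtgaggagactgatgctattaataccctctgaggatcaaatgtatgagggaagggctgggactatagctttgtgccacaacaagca
S100g: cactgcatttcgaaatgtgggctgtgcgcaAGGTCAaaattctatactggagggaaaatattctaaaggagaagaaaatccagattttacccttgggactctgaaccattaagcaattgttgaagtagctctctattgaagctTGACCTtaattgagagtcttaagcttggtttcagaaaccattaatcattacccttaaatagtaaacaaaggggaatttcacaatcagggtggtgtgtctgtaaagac

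The half-site AGGTCA occurred 2 times in the *Trpv6* window, 191 to 186 bases before the start on the opposite strand and 165 to 160 bases before it on the gene's own strand. It also occurred 2 times in the *S100g* window, 220 to 215 bases before the start on the gene's strand and 107 to 102 bases before it on the opposite one. No match stood in the windows of *Trpv3*, *Atp2b1* or *Vdr*, and 14% of the 32851 promoter windows in the table held at least 1. The vitamin D receptor pattern DR3, a pair of half-sites with a 3-base gap and at most 1 mismatch, matched in none of the windows of these 5 genes and in 4.9% of all windows. The core letters CAATAAA of HOXB13 (4.2% of windows), CATAAA of CDX factors (10.8%) and the TATA box TATAAA (12.4%) had no match in them either. A match here is a description of the letters, and says nothing of binding.

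The targeted gene and the makeup of the samples were examined before the levels. *Cldn2* stood at 44.5 to 504 CPM in the 9 WT libraries and at 0.0555 to 0.557 CPM in the 9 *Cldn2*KO libraries. All 6 epithelial markers were present in every group, with summed levels between 7476 and 15041 CPM in a library. Libraries fell apart by genes that mark position along the colon. *Hoxb13*, a homeobox gene of the most distal colon, stood at 198 to 570.1 CPM in 11 libraries and at 0 to 0.502 CPM in the other 7. Those 7 were the 6 recovery libraries and WT control replicate 2. In the same 7, *Cdx2*, a homeobox gene of the intestinal epithelium, stood at 214 to 337 CPM against 13.6 to 31 CPM elsewhere. The 6 small intestine markers summed to 20.3 to 72 CPM in the 11 libraries with *Hoxb13*, to 1466 to 3299.6 CPM in recovery and, in WT control replicate 2, to 2005 CPM. Most of that sum was *Fabp2*, an enterocyte fatty acid binding protein (405 to 2173 CPM in the 7 libraries), and *Slc10a2*, a bile acid transporter (665 to 1414 CPM in recovery, with 286 CPM in that control). *Sis*, sucrase-isomaltase, stood at 24.6 to 182 CPM in recovery but at 1.9 CPM in that control, so WT control replicate 2 was not alike to the recovery libraries in every such marker. *Fabp6* overlapped, at 8.91 to 118 CPM in recovery, 1.24 CPM in that control and 3.75 to 39.4 CPM in the other controls. *Apoa4* and *Lct* were nearly absent, with at most 1.25 and 0.333 CPM in any library. The study gives the distal colon as the source of its recovery RNA, whereas the distal homeobox gene *Hoxb13* was nearly absent from these recovery libraries. Recovery and position along the gut cannot be told apart in these groups, except through WT control replicate 2. In addition, *Xist*, expressed from the inactive X chromosome of females, stood above 100 CPM in 6 libraries, replicates 2 and 3 of WT recovery, *Cldn2*KO recovery and *Cldn2*KO AOM/DSS.

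*Trpv6*, the calcium-selective entry channel (ENSMUSG00000029868, GRCm38 chromosome 6, 41620621 to 41636405, minus strand, protein coding), was present in every library with *Hoxb13* and close to absent in every library without it. WT controls stood at 91.7, 0.131 and 89.4 CPM, and *Cldn2*KO controls at 25.5, 40.7 and 52.4 CPM. After recovery the values were 0.0814, 0.0717 and 0.0591 CPM in WT and 0.107, 0.0464 and 0.0492 CPM in *Cldn2*KO mice. Thus 2 WT controls were the highest of all libraries, and WT control replicate 2 stood with the recovery libraries.

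AOM/DSS libraries held *Trpv6* at 52.0, 56.7 and 59.7 CPM in WT and at 41.3, 28.2 and 43.6 CPM in *Cldn2*KO mice, so that WT was higher than *Cldn2*KO without overlap. In controls, WT replicates 1 and 3 were also above all 3 *Cldn2*KO libraries. The fitted log2 fold change of *Cldn2*KO against WT was -0.61 (SE 0.89) in controls, or -1.22 without WT control replicate 2, and -0.58 (SE 0.89) in AOM/DSS. With all libraries, both differences were smaller than their standard errors.

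The reads behind the low values were few. Each of the 7 low libraries held 1 or 2 reads of *Trpv6*, and WT recovery and *Cldn2*KO recovery held 4 each over the group. Pooled over a group, the CPM of WT controls was 932 times that of WT recovery (95% counting interval 364 to 3421), and in *Cldn2*KO mice the ratio was 592 (231 to 2175). WT control replicate 2 alone, which shared the low *Hoxb13*, stood at 1.81 times WT recovery (0.164 to 12.7), while WT control replicates 1 and 3 stood 693 times above replicate 2 (192 to 5724). These intervals are exact binomial ones and cover counting error only. With log2 CPM of *Hoxb13* as a covariate, the fitted log2 fold change of recovery against control went from -9.60 (SE 1.54) to -0.96 in WT and from -9.10 (SE 1.53) to 0.34 in *Cldn2*KO mice. Outside recovery, that covariate was low in WT control replicate 2 only, and in no *Cldn2*KO library.

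*Trpv3*, the other TRPV channel (ENSMUSG00000043029, chromosome 11, 73267388 to 73300363, plus strand, protein coding), had the same 2 levels but with WT control replicate 2 in between. It stood at 160.0, 11.6 and 106 CPM in WT controls and at 131, 148 and 91.1 CPM in *Cldn2*KO controls. Recovery libraries held 0.285, 0.933 and 0.355 CPM in WT and 0.803, 1.39 and 1.08 CPM in *Cldn2*KO mice. AOM/DSS libraries held 53.0, 61.7 and 27.1 CPM in WT and 52.4, 69.8 and 80.8 CPM in *Cldn2*KO mice. Every recovery library was thus below every other one, and WT control replicate 2 was above all recovery libraries and below all the rest.

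Pooled CPM of *Trpv3* was 224 times higher in WT controls than in WT recovery (152 to 343) and 112 times higher in *Cldn2*KO controls than in *Cldn2*KO recovery (87.8 to 144). WT control replicate 2, at 177 reads, was 24.7 times above WT recovery (16.3 to 38.9) and WT control replicates 1 and 3 were 11.9 times above replicate 2 (10.2 to 13.9). The log2 fold change of recovery against control was -7.56 (SE 0.86), or -4.39 with *Hoxb13* as a covariate, in WT and -6.81 (SE 0.80), or -2.98, in *Cldn2*KO mice. The log2 fold change of *Cldn2*KO against WT was 0.41 (SE 0.59) in controls, or -0.13 without WT control replicate 2, 1.16 (SE 0.90) in recovery and 0.52 (SE 0.59) in AOM/DSS, with overlapping libraries in each.

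**Figure D1:**
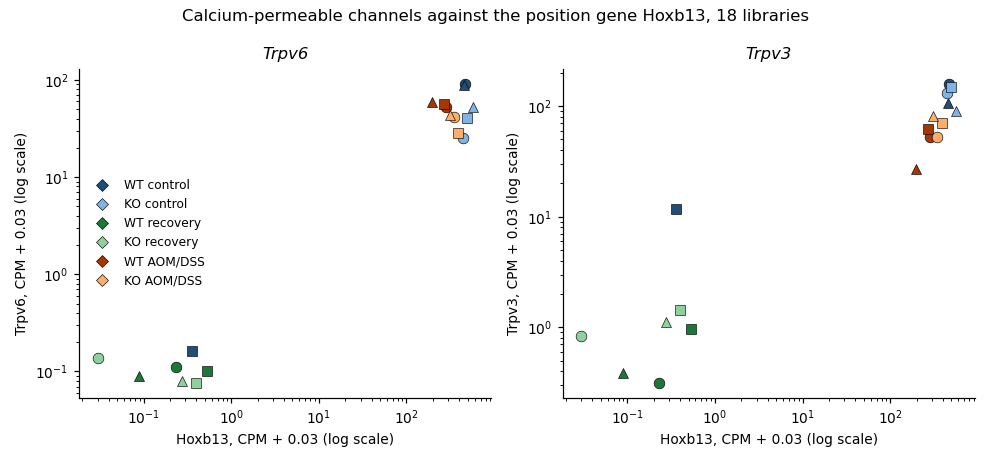
CPM of *Trpv6* (left) and *Trpv3* (right) against CPM of *Hoxb13* in the 18 libraries, both axes logarithmic after adding 0.03 CPM; colours are groups (KO, *Cldn2*KO), and circles, squares and triangles are replicates 1, 2 and 3. The 11 libraries with *Hoxb13* at 198 to 570.1 CPM hold *Trpv6* at 25.5 to 91.7 CPM and the other 7 at 0.0464 to 0.131 CPM, while WT control replicate 2 (dark blue square) stands apart from both clusters for *Trpv3*, at 11.6 CPM.

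Keratinocyte genes were summed because *Trpv3* is known from skin and the distal end of the colon borders squamous epithelium. The 7 markers of keratinised squamous epithelium summed to 4.12 to 11 CPM in controls, 3.44 to 16.9 CPM in recovery and 7.69 to 41.8 CPM in AOM/DSS, and in each group only 2 of the 7 averaged at least 1 CPM. Their part in the *Trpv3* levels was not tested.

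Calbindin-D9k is the cytosolic carrier, and its gene *S100g* (ENSMUSG00000040808, chromosome X, 162961992 to 162964599, minus strand, protein coding) was the member that differed most between the genotypes. In recovery, WT libraries held 148, 764 and 405 CPM, against 14.8, 44.2 and 30.9 CPM in *Cldn2*KO recovery. The lowest WT library was above the highest *Cldn2*KO library. The fitted log2 fold change was -3.87 (SE 0.88), and it was -3.92 with *Hoxb13* and -3.80 with *Xist* status in the fit. All 6 of these libraries lacked *Hoxb13*, and in both genotypes *Xist* stood above 100 CPM in replicates 2 and 3 only. Neither covariate could therefore move this difference much, and these values are not separate checks of it. Within each genotype, replicate 1, the one library without *Xist*, was the lowest, and *S100g* lies on the X chromosome. *Xist* status was spread alike over both groups, and the part of sex in this difference was not tested further. Leukocyte markers summed to 110.3 to 156 CPM in WT recovery and to 31.2 to 48.9 CPM in *Cldn2*KO recovery. That gap was one of *Jchain*, a gene of plasma cells (86.6 to 122 CPM against 13.3 to 19.4 CPM), and the other 5 markers overlapped between the genotypes. The part of these cells was not tested.

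In controls the order of the genotypes depended on 1 library. *S100g* stood at 30.0, 266 and 33.7 CPM in WT controls and at 74.0, 58.7 and 84.8 CPM in *Cldn2*KO controls. WT control replicate 2 was the highest of the 6, and the other 2 WT libraries were the lowest. The log2 fold change of *Cldn2*KO against WT was -0.60 (SE 0.79) with that library and 1.17 without it.

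Set against its own control, *S100g* in recovery went opposite ways in the 2 genotypes. In WT, recovery was higher, with a log2 fold change of 2.0 (SE 0.81) that came to 3.77 without WT control replicate 2 and to 1.07 with *Hoxb13* in the fit. In *Cldn2*KO mice, all 3 recovery libraries were below all 3 controls, at -1.27 (SE 0.80), which came to -3.83 with *Hoxb13* and to -2.12 with *Xist* status. On average AOM/DSS libraries held the least, at 10.8, 24.6 and 5.82 CPM in WT and 12.5, 20.2 and 6.87 CPM in *Cldn2*KO mice. Those 6 libraries were below every control, at log2 fold changes of -2.99 (SE 0.85) in WT, or -1.23 without WT control replicate 2, and -2.46 (SE 0.84) in *Cldn2*KO mice. Between genotypes, the AOM/DSS libraries differed by -0.06 (SE 0.80). *S100g* overlaps *Ctps2*, which runs on the other strand and had 13571 reads against 34555 for *S100g* over all libraries. Whether reads were counted by strand is not given in the sources used here, so reads of the pair cannot be told apart and the *S100g* values are uncertain to that extent.

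*Atp2b1*, the basolateral calcium pump (ENSMUSG00000019943, chromosome 10, 98915152 to 99026143, plus strand, protein coding), varied far less and differed by AOM/DSS. Controls held 293, 829.8 and 270.2 CPM in WT and 449, 485 and 367 CPM in *Cldn2*KO mice. Recovery libraries held 406, 466 and 393 CPM in WT and 390.4, 374 and 595 CPM in *Cldn2*KO mice. AOM/DSS libraries held 208, 215 and 160.1 CPM in WT and 174, 231 and 165 CPM in *Cldn2*KO mice, so that all 6 were below the 12 others. Against control, the log2 fold change was -1.26 (SE 0.34) in WT and -1.19 (SE 0.34) in *Cldn2*KO mice. WT control replicate 2 was the highest of all libraries, and without it the WT value came to -0.55. Recovery against control gave -0.14 (SE 0.33) in WT, or 0.56 without that library, and 0.06 (SE 0.33) in *Cldn2*KO mice, or -1.41 with *Hoxb13* in the fit. Between genotypes the fitted values lay between -0.10 and 0.10 in the 3 treatments (SE 0.33 each), although the control value came to 0.60 without WT control replicate 2.

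*Vdr*, the vitamin D receptor (ENSMUSG00000022479, chromosome 15, 97854425 to 97910630, minus strand, protein coding), was also lowest after AOM/DSS. It stood at 387, 644 and 334 CPM in WT controls and at 403, 444 and 349 CPM in *Cldn2*KO controls. Recovery gave 326, 353 and 280.2 CPM in WT and 431, 260.0 and 297 CPM in *Cldn2*KO mice. AOM/DSS libraries held 242, 243 and 65.7 CPM in WT and 175, 263 and 219 CPM in *Cldn2*KO mice. The AOM/DSS libraries were below every control, and only the highest of them, at 263 CPM, reached the lowest recovery library, at 260.0 CPM. The log2 fold change against control was -1.31 (SE 0.38) in WT and -0.86 (SE 0.38) in *Cldn2*KO mice. WT control replicate 2, at 644 CPM, was the highest of all libraries, so part of the WT value rests on it. The low value of 65.7 CPM belonged to WT AOM/DSS replicate 3, whose summed surface colonocyte markers were also the lowest, 340.0 CPM against 1068 to 2976 CPM in the other 5 AOM/DSS libraries. In bulk tissue, fewer cells of a type and less RNA per cell cannot be told apart.

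*Cyp24a1* (ENSMUSG00000038567, chromosome 2, 170482708 to 170497145, minus strand, protein coding), the enzyme that inactivates vitamin D and a classical target of its receptor, had 3 reads in the 18 libraries together. WT control replicate 2 held 0.0655 CPM, WT AOM/DSS replicate 2 held 0.0438 CPM and *Cldn2*KO AOM/DSS replicate 3 held 0.0352 CPM, 1 read each, and the other 15 held none. It lay under the limit of detection in every group, and no difference is given. The gene overlaps *Pfdn4* on the other strand, which had 5382 reads.

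**Figure D2:**
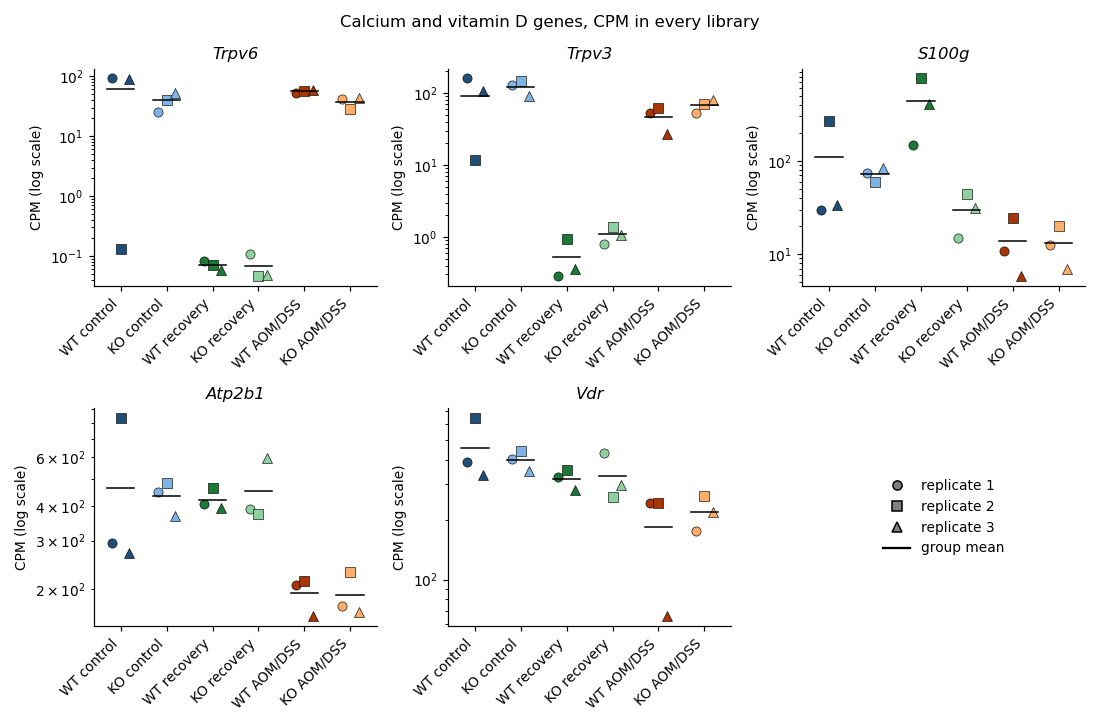
CPM on a logarithmic axis for the 5 members that passed the filter on low counts, by group (KO, *Cldn2*KO), with circles, squares and triangles for replicates 1, 2 and 3 and a line at the mean of the group (n = 3). *Trpv6* and *Trpv3* are low in all 6 recovery libraries, *S100g* is high in WT recovery (148 to 764 CPM), and WT control replicate 2 is the lowest control for both channels and the highest for the other 3 genes.

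Ordered by group mean, *Trpv6* ran from WT control (60.4 ± 52.2 CPM, SD, n = 3) through WT AOM/DSS (56.1 ± 3.88), *Cldn2*KO control (39.5 ± 13.5) and *Cldn2*KO AOM/DSS (37.7 ± 8.32) to WT recovery (0.0708 ± 0.0112) and *Cldn2*KO recovery (0.0676 ± 0.0343). Neighbours in that order overlapped in their libraries, except for the step from *Cldn2*KO AOM/DSS to WT recovery. *Trpv3* ran from *Cldn2*KO control (124 ± 29.4 CPM) and WT control (92.6 ± 75.1) through *Cldn2*KO AOM/DSS (67.7 ± 14.3) and WT AOM/DSS (47.3 ± 18) to *Cldn2*KO recovery (1.09 ± 0.294) and WT recovery (0.524 ± 0.355). Its only neighbours that did not overlap were WT AOM/DSS and *Cldn2*KO recovery. Without WT control replicate 2, both other WT controls (160.0 and 106 CPM) lay among or above the *Cldn2*KO controls, so the first step of that order rests on 1 library.

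For *S100g* the order was WT recovery (439 ± 309 CPM), WT control (109.8 ± 135), *Cldn2*KO control (72.5 ± 13.1), *Cldn2*KO recovery (30.0 ± 14.7), WT AOM/DSS (13.8 ± 9.72) and *Cldn2*KO AOM/DSS (13.2 ± 6.69), and among neighbours only *Cldn2*KO control and *Cldn2*KO recovery did not overlap. Without WT control replicate 2 the control groups change places, since the other 2 WT controls were below every *Cldn2*KO control. The 4 control and recovery groups of *Atp2b1* averaged 421 to 464 CPM and overlapped, followed without overlap by WT AOM/DSS (194 ± 29.9) and *Cldn2*KO AOM/DSS (190.4 ± 35.9). Those of *Vdr* averaged 319.7 to 455 CPM and also overlapped, followed by *Cldn2*KO AOM/DSS (219 ± 43.9), which did not overlap with WT recovery, and WT AOM/DSS (184 ± 102).

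Per kilobase of exon, the carrier reached the highest level. *S100g*, whose exons span 480 bases, averaged 915 CPM per kilobase in WT recovery and 27.4 in *Cldn2*KO AOM/DSS. *Vdr* averaged between 32.5 and 80.5 CPM per kilobase over the 6 groups and *Atp2b1* between 26.7 and 65.1. In WT controls, *Trpv6* averaged 15.3 and *Trpv3* 15.9 CPM per kilobase, and per kilobase the channels were below *Atp2b1*, *Vdr* and *S100g* in that group.

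**Figure D3:**
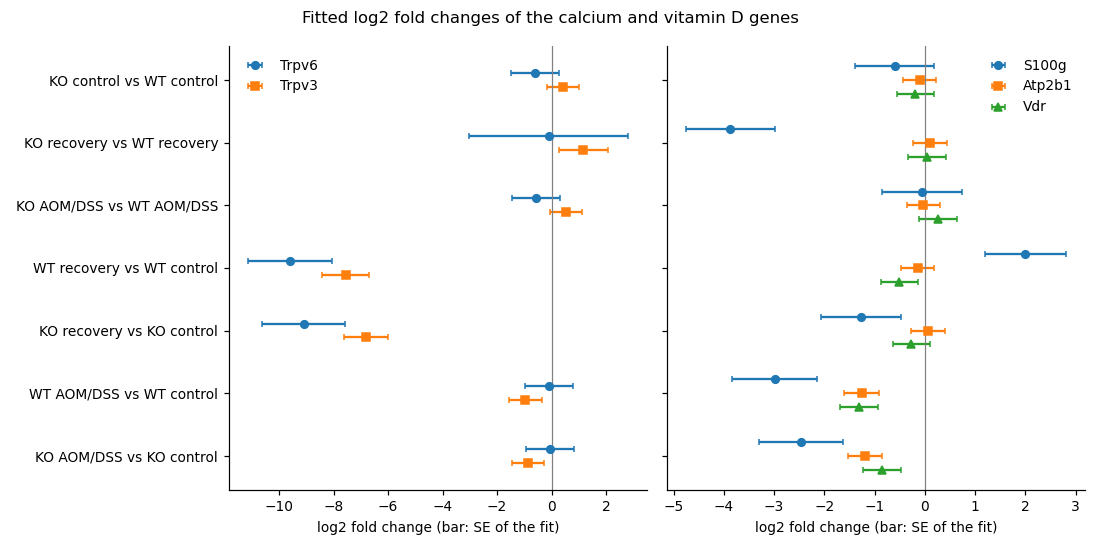
Fitted log2 fold changes with their standard errors (bars) for *Trpv6* and *Trpv3* (left) and *S100g*, *Atp2b1* and *Vdr* (right) in the 7 comparisons (KO, *Cldn2*KO); the 2 panels have different horizontal scales. Both channels stand below -6 in both recovery comparisons, *S100g* at -3.87 in *Cldn2*KO against WT recovery, and the pump and the receptor are below 0 in both AOM/DSS comparisons.

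The members went together in different sets depending on which libraries were compared. Over the 18 libraries, log2 CPM of *Trpv6* and *Trpv3* had a Pearson correlation of 0.94, but over the 11 libraries with *Hoxb13* it was 0.02. In those 11 libraries *Trpv3* went with *Vdr* (0.93) and *Atp2b1* (0.79) instead, and *S100g* with *Atp2b1* (0.93). *Vdr*, *S100g*, *Atp2b1* and *Trpv3* also went with *Slc26a3*, the chloride-bicarbonate exchanger of surface colonocytes, at 0.94, 0.93, 0.93 and 0.88 there, and the value for *Trpv6* was -0.14. In the same order, they went with *Hoxb13* at 0.86, 0.85, 0.8 and 0.85 there, and with *Krt20* at 0.53, 0.53, 0.48 and 0.67. The likeness was thus not particular to *Slc26a3*. Over all 18 libraries, the *Slc26a3* values were 0.81, 0.41, 0.63 and 0.29. These correlations describe libraries that share groups and tissue makeup and were not tested.

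**Figure D4:**
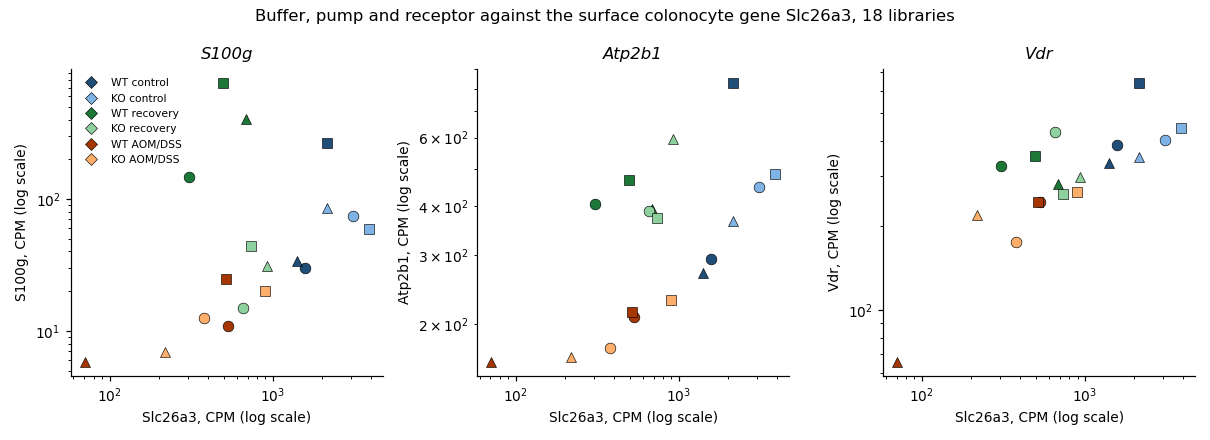
CPM of *S100g*, *Atp2b1* and *Vdr* against CPM of *Slc26a3* in the 18 libraries, all axes logarithmic; colours are groups (KO, *Cldn2*KO), and circles, squares and triangles are replicates 1, 2 and 3. WT AOM/DSS replicate 3 (dark orange triangle) is at the low end of both axes, and the WT recovery libraries hold more *S100g* than others at like *Slc26a3*.

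Some surface colonocyte markers were lower beside the members in AOM/DSS. *Slc26a3* (at most 892 CPM) and *Aqp8*, a water channel (at most 371 CPM), were lower in all 6 AOM/DSS libraries than in any control (at least 1405 and 643 CPM). *Car4* stood at 39.9 to 383 CPM against 367 to 1575 CPM, with WT control replicate 2 the lowest control. *Car1* and *Guca2a* did not separate, and in WT AOM/DSS replicates 1 and 2 both (657 and 1078 CPM, and 598 and 369 CPM) were above WT control replicates 1 and 3 (573 and 605 CPM, and 166 and 256 CPM). All 5 summed to 340.0 to 2976 CPM in AOM/DSS and 3733 to 53038 CPM in controls. In recovery, *Slc26a3* (307 to 926 CPM) and *Aqp8* (29.2 to 421 CPM) were also below every control, while *Atp2b1* stood at 374 to 595 CPM there. *Car4* stood at 193 to 485 CPM in recovery. *Car1* (8171 to 43582 CPM) and *Guca2a* (2383 to 5210.5 CPM) were higher there than in every control but WT control replicate 2. So was the sum of all 5, at 27497 to 49970.1 CPM in WT recovery and 13873 to 36263 CPM in *Cldn2*KO recovery. The part of these markers in the lower *S100g*, *Atp2b1* and *Vdr* of AOM/DSS was not tested.

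Other cell types also moved with genotype and treatment. Smooth muscle markers summed to 3528 to 5313 CPM in WT and 7225 to 9601 CPM in *Cldn2*KO controls, to 667 to 2021 CPM and 784 to 1392 CPM in recovery, and to 524 to 2789 CPM and 2183 to 5476 CPM in AOM/DSS. Leukocyte markers summed to 743 to 882 CPM in WT and 19.6 to 123 CPM in *Cldn2*KO controls, of which *Jchain* made up 689.5 to 824 CPM and 11.4 to 84.8 CPM, and to 232 to 474 CPM and 169 to 361 CPM in AOM/DSS. Of the other 5 leukocyte markers, only *Cd3e* did not overlap between the control groups (0.511 to 7.27 CPM in WT and 0.0555 to 0.246 CPM in *Cldn2*KO mice). The part of these in any difference above, or in those of the pathway genes below, was not tested.

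Genes with the profile most like each member were sought over the 18 libraries by Pearson correlation of log2 CPM. The 5 nearest to *Trpv6* were *Tmprss13* (0.993), *Hoxd13* (0.991), *Casp14* (0.99), *Hoxd12* (0.99) and *Evx2* (0.988), of which *Hoxd13*, *Hoxd12* and *Evx2* are homeobox genes of the HoxD region. Within the 11 libraries with *Hoxb13*, those 5 correlations lay between -0.405 and 0.609. For *Trpv3* the nearest were *Rdx* (0.981), *Rhbdl2* (0.976), *Ssbp3* (0.975), *Adamts15* (0.972) and *Prkch* (0.97), and *Rhbdl2* stayed at 0.96 within the 11. *S100g* was nearest to *Prdx5* (0.903), *Pnkd* (0.886), *Ndufc1* (0.876), *Sat2* (0.874) and *Atp5h* (0.869). Genes near *Atp2b1* were *Slc18a2* (0.937), *Ano10* (0.937), *Adap1* (0.932) and *Srr* (0.927), and those nearest to *Vdr* were *Negr1* (0.949), *Pcp4* (0.929), *Cnksr3* (0.928), *Fbxo25* (0.926) and *Ppm1e* (0.926).

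Other genes of calcium transport, vitamin D and phosphate uptake formed a list of 53, of which 42 passed the filter on low counts and were tested with edgeR's quasi-likelihood test (adjusted over all 16937 genes, called at an adjusted p under 0.05). *Trpv5*, the renal counterpart of *Trpv6*, *Calb1*, the larger calbindin, and *Cyp27b1*, which makes active vitamin D, were among the 11 that did not pass, with at most 1.61, 0.789 and 0.438 CPM in any library. Between genotypes, 0 of the 42 were called in controls (1.17% of all genes were called), 0 in recovery (0.974%) and 0 in AOM/DSS (0.00590%). An unadjusted p under 0.05 was reached by 2, 9 and 3 of them. DESeq2 called 0, 5 and 0, where it called 4.07%, 10.3% and 0.0237% of all genes. Nor was the response of any of the 42 to recovery (0.130% of all genes called) or to AOM/DSS (0.0118%) called as different between the genotypes by edgeR, with 9 and 2 at an unadjusted p under 0.05 and 1 and 0 called by DESeq2 (7.56% and 0.515% of all genes).

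In recovery, 3 of the 42 were called higher and 12 lower in WT (10.0% and 12.2% of all genes), and 5 higher and 7 lower in *Cldn2*KO mice (9.43% and 10.0%). The median log2 fold change of the 42 was -0.19 in WT and 0.00 in *Cldn2*KO mice, against -0.04 and 0.00 over all genes. Among entry channels, 4 of 6 tested were called lower in WT and 2 of 6 in *Cldn2*KO mice. *Trpv1*, the capsaicin receptor, fell most. WT mice had 2.87, 0.0655 and 2.25 CPM of it in controls and 0.0407, 0.0717 and 0 CPM in recovery. *Cldn2*KO mice had 4.09, 3.77 and 2.10 CPM in controls and 0.107, 0 and 0.0492 CPM in recovery. The pooled CPM of controls was 54.1 times that of recovery in WT (14.6 to 452; adjusted p = 0.00493) and 67.4 times in *Cldn2*KO mice (22.7 to 329.8; adjusted p = 0.00182). As for *Trpv6*, WT control replicate 2 stood with the recovery libraries, at 1 read. With *Hoxb13* in the fit the log2 fold changes came to -0.78 (adjusted p = 0.812) and -0.57 (adjusted p = 0.945).

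*Trpv2* fell in both genotypes, by 1.57 (SE 0.35; adjusted p = 0.00577) and 2.19 (SE 0.35; adjusted p = 0.000919) on the log2 scale. With *Hoxb13* in the fit the values were -1.27 (adjusted p = 0.0962) and -1.74 (adjusted p = 0.266). *Trpm6*, an epithelial magnesium channel, fell in WT (log2 fold change -2.35, SE 0.49, adjusted p = 0.00485), from 237, 205 and 215 CPM to 38.5, 38.2 and 52.1 CPM, with WT control replicate 2 among the controls. In *Cldn2*KO mice it stood at 206, 206 and 175 CPM in controls and 79.1, 83.2 and 72.8 CPM in recovery (log2 fold change -1.32, SE 0.47, adjusted p = 0.0644). A fit of the 2 groups alone called that fall (adjusted p = 0.000192), as did DESeq2 (adjusted p = 0.0233), but a fit with *Hoxb13* did not.

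Among the 7 extrusion genes tested, 3 were called lower in each genotype. *Atp2b4*, another plasma membrane calcium ATPase, fell by 2.08 (SE 0.45; adjusted p = 0.00549) in WT and 2.19 (SE 0.45; adjusted p = 0.00403) in *Cldn2*KO mice. With *Hoxb13* in the fit the *Atp2b4* values were -2.12 (adjusted p = 0.0388) and -2.26 (adjusted p = 0.264). The sodium-calcium exchanger *Slc8a2* fell as well (log2 fold changes -1.99 and -1.92, adjusted p = 0.0240 and 0.0261), and was called in 7 and 5 of 12 alternatives. With *Hoxb13* in the fit its values were -2.09 and -2.07 (adjusted p = 0.100 and 0.439). Its paralog *Slc8a1* rose in *Cldn2*KO mice (log2 fold change 2.18, SE 0.70, adjusted p = 0.0418), from 7.99, 10.2 and 5.27 to 41.8, 26.4 and 38.0 CPM, and its WT values were 5.15, 38.3 and 3.89 CPM in controls and 21, 12.9 and 25 CPM in recovery. The claudin *Cldn15*, a pore-forming relative of claudin-2, rose in *Cldn2*KO mice by 1.92 (SE 0.57; adjusted p = 0.0296). It stood at 34.8, 207 and 41.6 CPM in WT controls, so that for *Slc8a1* and *Cldn15* too WT control replicate 2 stood apart from the other WT controls. With *Hoxb13* in the fit, the *Cldn2*KO values came to -1.12 for *Slc8a1* (adjusted p = 0.591) and -0.45 for *Cldn15* (adjusted p = 0.877), and the rises were called in 3 and 4 of 12 alternatives. In WT recovery *Cldn15* stood at 186, 241 and 138 CPM, and without WT control replicate 2 both genes were also called higher in WT, at 2.10 (adjusted p = 0.00594) for *Slc8a1* and 2.28 (adjusted p = 0.00106) for *Cldn15*.

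Of the vitamin D genes, *Cubn*, a receptor for uptake of the vitamin D binding protein, rose in both genotypes by 3.88 (SE 1.15; adjusted p = 0.0264) and 3.99 (SE 1.18; adjusted p = 0.0283), which came to 2.46 (adjusted p = 0.389) and 1.49 (adjusted p = 0.855) with *Hoxb13* in the fit. *Cyp3a11*, a xenobiotic cytochrome that vitamin D can induce, had no read in any control but 0.855, 2.51 and 1.54 CPM in recovering WT and 0.589, 0.510 and 0.394 CPM in recovering *Cldn2*KO mice. That is at least 29.1-fold and 9.4-fold higher, against a floor of 3 reads over the group (adjusted p = 0.000996 and 0.00376), and near-identical copies of this gene make its count uncertain. The medians of the 42 were the same with *Cyp3a11* at these bounds. *Slc37a2*, a sugar-phosphate transporter, fell in WT by 6.79 (SE 1.45; adjusted p = 0.00543). Its values were 340.1, 1099 and 279 CPM in WT controls and 5.74, 0.574 and 8.99 CPM in WT recovery, so WT control replicate 2 was the highest control and unlike the recovery libraries. *Cldn2*KO mice had 369, 322 and 205 CPM in controls and 3.05, 4.78 and 118 CPM in recovery (log2 fold change -2.83, SE 1.20, adjusted p = 0.113). Without *Cldn2*KO recovery replicate 3, the library at 118 CPM, that value was -6.25 (adjusted p = 0.00495), so the missing call rests on 1 library.

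Phosphate carriers were called as well. *Slc34a2* fell by 3.33 (SE 0.84; adjusted p = 0.0126) in WT and 3.36 (SE 0.84; adjusted p = 0.0125) in *Cldn2*KO mice, and with *Hoxb13* in the fit the direction turned, to 0.32 (adjusted p = 0.880) and 0.81 (adjusted p = 0.875). WT control replicate 2 held 2.88 CPM of it, while replicates 1 and 3 held 82.8 and 45.2 CPM and the WT recovery libraries 3.22, 3.08 and 6.74 CPM. *Slc20a1* fell by 1.73 (SE 0.48; adjusted p = 0.0186) and 2.11 (SE 0.48; adjusted p = 0.00727). Without WT control replicate 2, at 741 CPM of *Slc20a1* where replicates 1 and 3 held 304 and 264 CPM, the WT value was -1.13 (adjusted p = 0.0695). Also in these counts, and named after their values were seen, were 6 more genes. *Cdkn1a*, a cell cycle inhibitor, fell in WT by 1.16 (adjusted p = 0.00217; called in 12 of 12 alternatives) and *Ncoa1*, a nuclear receptor coactivator, by 1.13 (adjusted p = 0.00502; called in 11 of 12). The others were *Cacna1d* (log2 fold change -1.30 in WT, called in 6 of 12), *Slc8b1* (-1.31 in WT and -1.70 in *Cldn2*KO mice, called in 3 and 11 of 12), *Snw1* (0.42 in WT, called in 5 of 12) and *Ncor1* (0.64 in *Cldn2*KO mice, called in 3 of 12). With *Hoxb13* in the fit, *Slc8b1* came to -0.01 (adjusted p = 0.993) and 0.01 (adjusted p = 0.998), *Cacna1d* to -0.68 (adjusted p = 0.456), *Snw1* to 0.42 (adjusted p = 0.177) and *Ncor1* to -0.01 (adjusted p = 0.998). With log2 CPM of *Hoxb13* as a covariate, 9 genes were called in WT (7.23% of all genes) and 1, *Slc20a1*, in *Cldn2*KO mice (0.461%). Of the 15 called in WT without the covariate, 6 were among these 9. Without WT control replicate 2, 17 were called in WT, 6 higher and 11 lower (12.2% and 13.5% of all genes), and 13 of the 15 were among them.

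After AOM/DSS, 3 of the 42 were called higher and 10 lower in WT (3.81% and 6.58% of all genes) and 0 in *Cldn2*KO mice (0.195%), where 9 reached an unadjusted p under 0.05 and DESeq2 called 5 (3.56% of all genes). The median log2 fold change of the 42 was -0.37 in WT and -0.22 in *Cldn2*KO mice, against 0.01 over all genes in both. *Sgk1*, a kinase that regulates epithelial channels, fell in WT by 2.30 (SE 0.51; adjusted p = 0.0188), from 129.8, 347 and 136 CPM to 50.6, 35.9 and 38.4 CPM. In *Cldn2*KO mice it stood at 397, 378 and 315 CPM in controls and 82.7, 79.3 and 36.7 CPM in AOM/DSS (log2 fold change -2.46, SE 0.51, adjusted p = 0.0692). It was called there with *Hoxb13* in the fit (adjusted p = 0.0157), in the 2 groups alone (0.00951) and by DESeq2 (0.000145). The WT call was lost without WT control replicate 2 (adjusted p = 0.0684), without WT AOM/DSS replicate 3 (0.0813) and in the 2 groups alone (0.172). The calls of *Sgk1* thus do not set the genotypes apart.

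*Rxra*, the partner of the vitamin D receptor, fell in WT by 1.05 (SE 0.30; adjusted p = 0.0395), from 64.8, 162 and 57.4 CPM to 42.8, 55.9 and 38.6 CPM. Without WT control replicate 2 the log2 fold change was -0.43 (adjusted p = 0.197), and the fall was called in 5 of 12 alternatives. *Calb2*, which encodes the calcium buffer calretinin, fell in WT too (log2 fold change -2.49, SE 0.64, adjusted p = 0.0286). So did *Trpm6*, *Slc8a2*, *Slc20a1*, *Atp2b4* and *Atp2b3*, with log2 fold changes between -2.02 and -1.69 and adjusted p between 0.0290 and 0.0491. *Nedd4l*, a ubiquitin ligase that acts on epithelial channels, fell by 1.11 (SE 0.27; adjusted p = 0.0259) and was also named after its values were seen (-0.64 without WT control replicate 2, adjusted p = 0.105). The claudin *Cldn12*, linked to paracellular calcium transport, rose slightly (log2 fold change 0.43, SE 0.13, adjusted p = 0.0455). The other 2 called higher, *Snw1*, a coactivator of the vitamin D receptor, and *Slc20a2*, a phosphate carrier, were named after their values were seen (log2 fold changes 0.46 and 0.94, adjusted p = 0.0345 and 0.0308).

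*Slc30a10*, a manganese exporter and a target of the vitamin D receptor, was not called in any comparison with all libraries in the edgeR fit. Its values were 2.04, 235 and 2.14 CPM in WT controls and 42.7, 27.3 and 29.7 CPM in *Cldn2*KO controls. AOM/DSS libraries held 0.564 to 5.42 CPM (log2 fold change -4.58, SE 1.47, adjusted p = 0.0578 in WT, and -3.95, SE 1.44, adjusted p = 0.222 in *Cldn2*KO mice). The WT value rests on WT control replicate 2, without which it was 0.65 (adjusted p = 0.711), and over 12 alternatives 3 called it lower. Without that library, *Slc30a10* was called higher in WT recovery against control (log2 fold change 5.03, adjusted p = 0.00141) and in *Cldn2*KO against WT controls (3.97, adjusted p = 0.0454). In *Cldn2*KO AOM/DSS, 2 of 12 alternatives called it lower. Like *S100g*, it was highest among controls in WT control replicate 2 and second among them in the *Cldn2*KO libraries. The number of calls in WT AOM/DSS moved with single libraries. Without WT control replicate 2, 1 gene was called (2.17% of all genes). This was *Cdkn1a*, at a log2 fold change of -1.24 (adjusted p = 0.0148) there and -1.18 (adjusted p = 0.00824) with all libraries, and it was called in 11 of 12 alternatives. Without WT AOM/DSS replicate 3, 2 were called (1.01% of all genes), and in a fit of the 2 groups alone none were (0.0413%). The fold changes of *Sgk1* lay between -2.54 and -1.69 over the 12 alternatives and those of *Calb2* between -3.57 and -2.01.

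**Figure D5:**
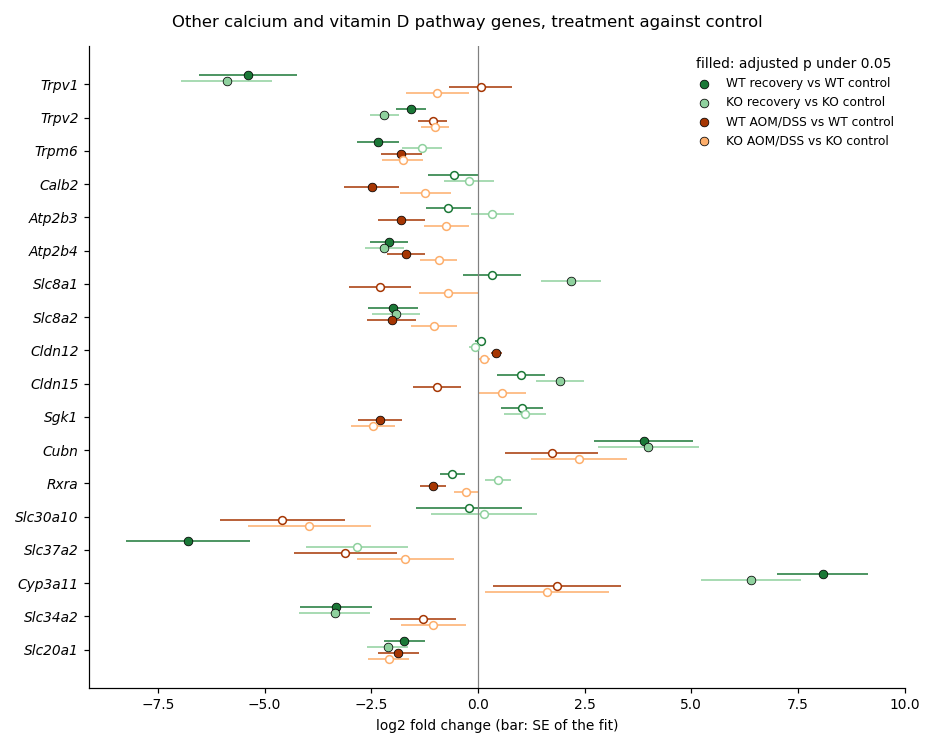
Fitted log2 fold changes with standard errors (bars) of the 15 called pathway genes with the largest absolute changes, and of *Cldn12*, *Rxra* and *Slc30a10*. Each is shown for treatment against control in each genotype (KO, *Cldn2*KO), and the other pathway genes named in the text are not shown. Filled points have an edgeR adjusted p under 0.05 and open points do not. Of the genes shown, *Trpv1*, *Trpv2*, *Atp2b4*, *Slc8a2*, *Slc34a2* and *Slc20a1* are filled and below 0 in both recovery comparisons, and no point of *Cldn2*KO AOM/DSS against control is filled.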

How the data were processed

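The authors isolated RNA with a Zymo Research kit, sequenced it on an Illumina NovaSeq and counted reads per gene with featureCounts of the Subread package. The paper's methods name TopHat2 as the aligner and the submitters' processing notes name HISAT2 and GRCm38. Versions, the use of strand and the treatment of multiply aligned reads were not given in the sources used here. The deposited values were raw counts per gene in 36 columns, 2 lanes for each of 18 libraries. The lanes of a library were summed, since their chi-square divided by its degrees of freedom was 1.08 to 1.17, and no pair of libraries in a group was that close (lowest 11.0). Symbols and positions came from GENCODE M21, in which 40859 of 47729 genes had the same start and end. Groups came from the genotype and treatment labels.

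Genes were kept with edgeR's filterByExpr (16937 kept, 30792 dropped) and libraries scaled with TMM factors. CPM are TMM-scaled. The group means were estimated in 1 model over all 18 libraries with edgeR 4.0.16 (glmQLFit, robust, and glmQLFTest; R 4.3.3), with Benjamini-Hochberg adjustment over all genes kept, and the fit was tested on simulated counts. Correlations used log2 CPM with a prior count of 2 and genes with a mean of at least 1 CPM. Ratios of groups with few reads carry exact 95% binomial intervals. The authors' own test was DESeq2, which was run as an alternative (1.42.0). The other alternatives were RLE size factors, no filter on low counts, a fit of only the groups compared, each library left out in turn, log2 CPM of *Hoxb13* or *Xist* status (over 100 CPM) as a covariate, and a replicate block. A TMM-scaled CPM of 1 stands for 13.9 to 30.8 reads, depending on the library.

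The members, the list of 53 pathway genes and the marker lists were chosen with earlier results of these data known. The text names the members, the 15 of the 25 pathway genes called in a comparison that had the largest absolute log2 fold changes, *Cldn2*, *Trpv5*, *Calb1*, *Slc8a1*, *Cldn12*, *Cldn15*, *Cyp27b1*, *Rxra* and *Slc30a10* whatever their result (*Rxra* and *Cldn12* are among the 25), the other 8 of the 25, which were named after their values were seen, and the 5 genes most correlated with each member, of which 1 is not reported here.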

Additional observations from a re-analysis of the deposited data

Results flagged for a closer look

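The response of *S100g* to recovery from DSS colitis went in opposite directions in the genotypes. All 3 WT recovery libraries (148, 764 and 405 CPM) were above the mean of the WT controls (109.8 CPM), and all 3 *Cldn2*KO recovery libraries (14.8, 44.2 and 30.9 CPM) were below the mean of the *Cldn2*KO controls (72.5 CPM). The difference between the responses was -3.27 (SE 1.14) on the log2 scale and -5.05 without WT control replicate 2. As the gene was chosen with these levels known, the difference was not tested.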

How the results depend on the processing

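The counts of called pathway genes changed with several settings, and the cause was not tested. With log2 CPM of *Hoxb13* as a covariate, 9 genes were called in WT recovery against control (15 without it), 1 in *Cldn2*KO recovery (12), 2 in WT AOM/DSS (13) and 4 in *Cldn2*KO AOM/DSS (0). DESeq2 called 5 in *Cldn2*KO against WT recovery, 1 for the difference between genotypes in the response to recovery, 21 in WT AOM/DSS (17.9% of all genes) and 5 in *Cldn2*KO AOM/DSS. A fit of only the groups compared called 0 in WT AOM/DSS and 6 in *Cldn2*KO AOM/DSS, and no filter on low counts left 6 in WT AOM/DSS. Leaving out 1 library at a time gave 0 to 1 for *Cldn2*KO against WT in controls (1 without WT control replicate 2) and in recovery (1 without *Cldn2*KO recovery replicate 1), 9 to 17 in WT recovery against control (9 without WT control replicate 1), 7 to 9 in *Cldn2*KO recovery (7 without *Cldn2*KO control replicate 1, control replicate 2 or recovery replicate 1), 1 to 12 in WT AOM/DSS (1 without WT control replicate 2, 8 without WT AOM/DSS replicate 1, 2 without WT AOM/DSS replicate 3), 0 to 2 in *Cldn2*KO AOM/DSS (2 without *Cldn2*KO AOM/DSS replicate 2) and 0 to 1 for the response to recovery (1 without *Cldn2*KO recovery replicate 1). The other 99 of 121 recomputed counts stayed within 1.5 times of the value given. Apart from the shares of all genes given in the text, none is given for these settings. Without that share, a change in a count does not tell a change in the list from one in the whole table. Of 605 recomputed fold changes of the members, 570 differed from the value given by less than the spread between replicates. The other 35 moved further, and 15 of them changed sign, in each case without WT control replicate 2 or with *Hoxb13* as a covariate. Among these were *Trpv6* in *Cldn2*KO recovery against control (-9.10 to 0.34) and *S100g* in *Cldn2*KO against WT controls (-0.60 to 1.17).

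Replicate numbers come from the labels in the control groups only, and same-numbered control libraries deviated from their group means with correlations of 0.157, 0.002 and 0.079, so the samples share only a number. With the replicate block in the 6 control libraries, 0 pathway genes were called, as without it. At this depth, the low *Trpv6* levels rest on 1 or 2 reads a library and *Cyp24a1* on at most 1.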
